A study of Nicotiana benthamiana with 12 samples.

Results

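The comparison described here set seedlings of the line pent1 against wild-type (WT) seedlings of Nicotiana benthamiana, both kept without added abscisic acid (ABA). It used 3 pent1 mock libraries and 3 WT mock libraries, 6 of the 12 libraries of the series, and its members were the 33189 of 45796 listed genes that passed a count filter in those 6 libraries. N. benthamiana is a relative of tobacco that serves as a laboratory plant, and the series used its LAB strain. Per the labels, plate-grown seedlings were put in liquid medium when 10 days old, stayed in it for 10 days, were given fresh medium with 0.1% DMSO (mock) and were collected whole after 3 h. The other 6 libraries, 3 of pent1 and 3 of WT, came from seedlings given 10 µM ABA in place of DMSO and are used here only to measure the genotype difference a second time. The design text calls the replicates independent and biological. What is altered in pent1, and how many lines stand behind it, is not stated in the labels, so no targeted transcript could be checked.

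ABA is the hormone of the plant response to drought and of seed dormancy. It is bound by soluble receptors of the PYR/PYL/RCAR family, which then inhibit type 2C protein phosphatases and so release SnRK2 kinases that act on transcription factors and channels. Plants hold some ABA of their own without treatment, so a mock sample is not a sample without the hormone. N. benthamiana is an allotetraploid, in which many genes exist as pairs of near-identical copies, so reads of one copy can be counted for the other. No table used here pairs the gene IDs with names or products, so pathways and cell types could not be examined, the tissue could not be checked against markers, and only 2 genes that rose and 2 that fell are named, by ID.

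Every value of pent1 comes from one deposited table and every value of WT from another, and the labels name no batch. Genotype and whatever else differs between those tables, in the plants, the sequencing or the counting, therefore cannot be told apart. Total counts were 19371555 to 19584708 in pent1 mock and 18199288 to 18714178 in WT mock. A count in 37692 to 37937 genes was found in pent1 mock libraries, against 38308 to 38359 in WT mock libraries. Genes with at least 10 counts numbered 32878 to 33285 in pent1 mock and 32765 to 32924 in WT mock, which overlapped (exact two-sided permutation p = 0.2), so the lower number in pent1 was found for genes with any count and not for these. Neither total counts nor genes with a count overlapped between the genotypes (exact two-sided permutation p = 0.1 each, the smallest that 3 against 3 can give). Replicates of pent1 mock varied more: the coefficient of variation beyond counting noise was 0.116 in pent1 mock and 0.062 in WT mock. Even so, any 2 libraries of different genotype lay 0.618 to 0.689 apart in root mean square log2 level, farther than 2 pent1 mock libraries (0.320 to 0.376) or 2 WT mock libraries (0.278 to 0.302). The first principal component held 72.4% of the variance and separated the genotypes.

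A large share of the genes measured differed between pent1 and WT without added ABA, mostly by modest amounts. In pent1 mock 6110 genes were higher (18.4%) and 5482 lower (16.5%) than in WT mock, 11592 in all (34.9%; edgeR quasi-likelihood test, Benjamini-Hochberg adjusted p under 0.05, 3 against 3 libraries). The median log2 fold change, pent1 over WT, was 0.60 for genes called higher and -0.52 for genes called lower, beside 0.02 over all genes tested. The upper quartile of the higher genes began at 0.95 and the lowest quartile of the lower genes at -0.78. All 3 pent1 libraries lay above all 3 WT libraries for 8081 genes (24.3%) and below them for 7711 (23.2%). Called genes at least 2-fold apart were 1380 higher (4.16%) and 916 lower (2.76%) in pent1, 2296 in all (6.92%). The small excess of higher genes over all calls depended on scaling, with 5310 higher and 6388 lower under upper-quartile factors and 6723 higher and 4350 lower with library size alone. At 2-fold the excess of higher genes held under each of these scalings, with 1272 against 994 and 1519 against 821, but not without a filter on low counts, with 1471 against 1477.

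The direction of the difference changed with its size. To measure this without a fitted value, counts were summed over the 3 libraries of each group, a group with 3 or fewer counts was set to this floor of 3, so that its folds are lower bounds, and each sum was divided by the group's summed library size scaled by TMM factors. Folds by summed counts are ratios of these scaled sums. Among genes called, 1204 were 2- to 4-fold higher in pent1 mock and 627 lower by the same factor. Between 4- and 8-fold, 148 were higher and 83 lower. Above that the order turned, with 20 higher and 74 lower at 8- to 16-fold, 10 higher and 81 lower at 16- to 32-fold, and 0 higher and 53 lower at 32-fold or more. The lower genes thus held a class of nearly silent transcripts that had hardly any counterpart among the higher genes.

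**Figure D1:**
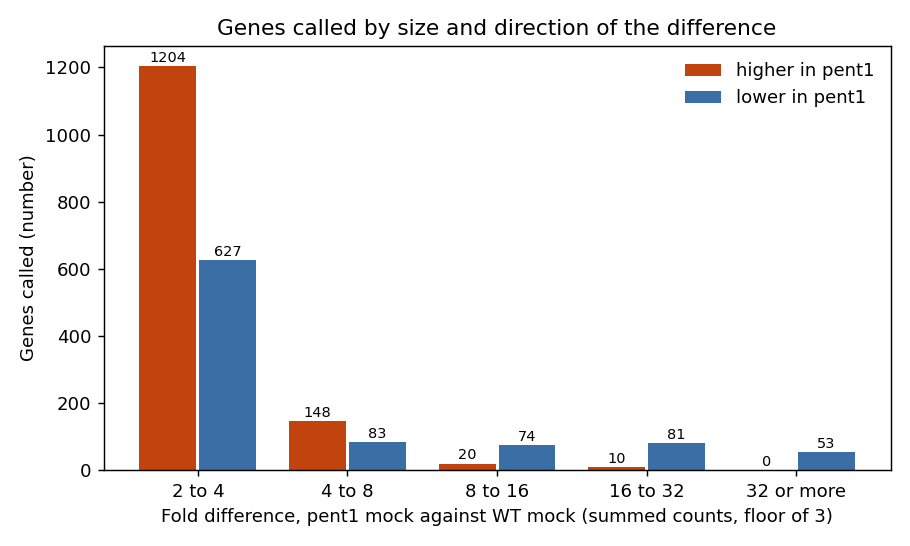
Number of genes called in pent1 mock against WT mock (vertical axis) in 5 classes of fold difference (horizontal axis), for genes higher in pent1 and genes lower in pent1. Higher genes lead up to 8-fold (1204 against 627, then 148 against 83), and lower genes lead above it (74, 81 and 53, against 20, 10 and 0).

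The 134 genes at least 16-fold lower in pent1 mock were mostly weakly expressed in WT. They held 2 counts in the median over the 3 pent1 mock libraries, against 108.5 counts in the median over the 3 WT mock libraries, where they ranged from 46 to 6799. Their median level was 0.0341 CPM (counts relative to the scaled library size, in the usual unit) in pent1 mock and 1.95 CPM in WT mock, while the median of all genes tested was 10.4 CPM in pent1 mock and 10.1 CPM in WT mock. In 25 of them no read was counted in any pent1 mock library, and 79 had 3 or fewer counts there, so their folds are lower bounds. They were spread over all 20 prefixes of the gene IDs, with 1 to 12 genes each, and 2 of the 134 had another of them beside it in the order of tested IDs. In the ABA libraries, which took no part in their choice, 131 of the 134 stood at least 4-fold under WT and 99 at least 16-fold by summed counts, while 127 passed the count filter there and edgeR called 126 of them lower, beside 14.4% of all genes tested under ABA. There they held 5 counts in the median in pent1 ABA, against 133 in WT ABA. Between 94 and 145 genes met this limit when 1 mock library was left out.

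Some genes gave no count at all in pent1 mock. Taking genes with at least 1 CPM in every library of one genotype and none in the other, 15 had no count in pent1 mock and 0 had none in WT mock. The 15 held 60 to 228 counts over the WT mock libraries, at 1.08 to 4.11 CPM on average, and were at least 21.8- to 82.8-fold lower in pent1 by scaled sums with the floor. All 15 were called by edgeR. The one with the most counts had 0 in each pent1 mock library, against 66, 100 and 62 in the WT mock libraries, and the one with the fewest had 0 in each pent1 mock library, against 19, 21 and 20 in the WT mock libraries. The rule itself fixed this separation under mock. Over the 3 ABA libraries they had 0 to 7 counts in pent1, against 52 to 333 in WT. The lowest single WT ABA library of any of them held 6 counts, against 1, 0 and 0 in the pent1 ABA libraries for the same gene. A count of 0 over a group allows up to 3 counts, so the transcripts were not detectable at this depth rather than shown to be absent. The number rose to 32 without pent1 mock replicate 2. At a looser limit, 62 genes had a count in each pent1 mock library and none in WT mock. The reverse held for 410, both out of 40846 genes with a count in at least 1 mock library. In the ABA libraries 38 of the 62 and 386 of the 410 kept their direction by unscaled summed counts. With at least 5 counts in each library, the numbers were 1 for pent1 only and 85 for WT only. Genotype and deposited table coincide for these genes too and cannot be told apart.

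The 10 genes at least 16-fold higher in pent1 mock were a smaller and looser group. They held 77 to 12404 counts over the 3 pent1 mock libraries, against 1 to 695 over the 3 WT mock libraries. In the ABA libraries all 10 stood at least 2-fold above WT, 7 of them at least 4-fold and 2 at least 16-fold by summed counts, but only 7 of the 10 passed the count filter there and edgeR called 6 of them higher, beside 12.7% of all genes tested under ABA. Their number was 18 without pent1 mock replicate 3 and 4 without WT mock replicate 2.

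The gene highest by fold among well expressed genes was NbL02g23070, which stood at 159, 224 and 236 CPM in the pent1 mock libraries, against 14.1, 11.1 and 12.4 CPM in the WT mock libraries. Every pent1 library was far above every WT library. For all 4 named genes, the naming rule itself required a call and no overlap under mock. The mean of NbL02g23070 was 206 ± 41.4 CPM in pent1 mock and 12.5 ± 1.52 CPM in WT mock (SD, n = 3 each), a log2 fold change of 4.04 with an SE of 0.161 and an adjusted p of 5.25e-09 by edgeR's quasi-likelihood test. In the ABA libraries it stood at 215, 171 and 279 CPM in pent1, against 16.0, 23.2 and 23.9 CPM in WT, and the log2 fold change was 3.36 (SE 0.209, adjusted p = 3.96e-06 in edgeR). One of its 2 tested neighbours in the ID order was called higher too, with a log2 fold change of 4.41, and the other had -0.13. Whether reads are shared between these neighbours cannot be told from the tables.

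NbL12g06900 was the next highest, at 74.1, 87.1 and 78.8 CPM in the pent1 mock libraries, against 7.23, 5.12 and 6.15 CPM in the WT mock libraries. The groups lay far apart and the pent1 replicates close together. Its log2 fold change was 3.70 (SE 0.12, adjusted p = 1.93e-11 in edgeR). Under ABA it stood at 70.1, 78.3 and 97.6 CPM in pent1, against 9.12, 11.5 and 12.7 CPM in WT, with a log2 fold change of 2.85 (SE 0.155, adjusted p = 4.34e-07 in edgeR). One of its 2 tested neighbours was called higher as well, with a log2 fold change of 2.20, and the other had 0.28. The same limit on shared reads applies here.

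Of the well expressed genes that fell, NbL05g00990 was lowest by fold, at 1.40, 3.63 and 1.07 CPM in the pent1 mock libraries, against 64.0, 76.4 and 64.9 CPM in the WT mock libraries. Pent1 mock replicate 2 held more than both of the other pent1 libraries and was still far under any WT library. The log2 fold change came to -5.08 (SE 0.346, adjusted p = 0.000142 in edgeR), and scaled summed counts were 33.9-fold lower in pent1. In the ABA libraries the gene stood at 2.21, 3.90 and 2.64 CPM in pent1, against 70.0, 60.6 and 96.6 CPM in WT, with a log2 fold change of -4.73 (SE 0.235, adjusted p = 1.12e-06 in edgeR).

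NbL19g19090 stood at 3.64, 7.16 and 3.22 CPM in the pent1 mock libraries, against 112, 140 and 115 CPM in the WT mock libraries. Replicate 2 was again the highest of the pent1 libraries, and it was the highest of the WT libraries as well. The log2 fold change was -4.71 (SE 0.279, adjusted p = 2.91e-05 in edgeR), and scaled summed counts were 26.4-fold lower in pent1. Under ABA it stood at 4.85, 8.78 and 8.07 CPM in pent1, against 123, 112 and 174 CPM in WT, with a log2 fold change of -4.27 (SE 0.246, adjusted p = 5.75e-06 in edgeR). The tested neighbours of both lowered genes were not called lower, with log2 fold changes of 0.13 to 0.33. Neither gene fell together with its neighbours.

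**Figure D2:**
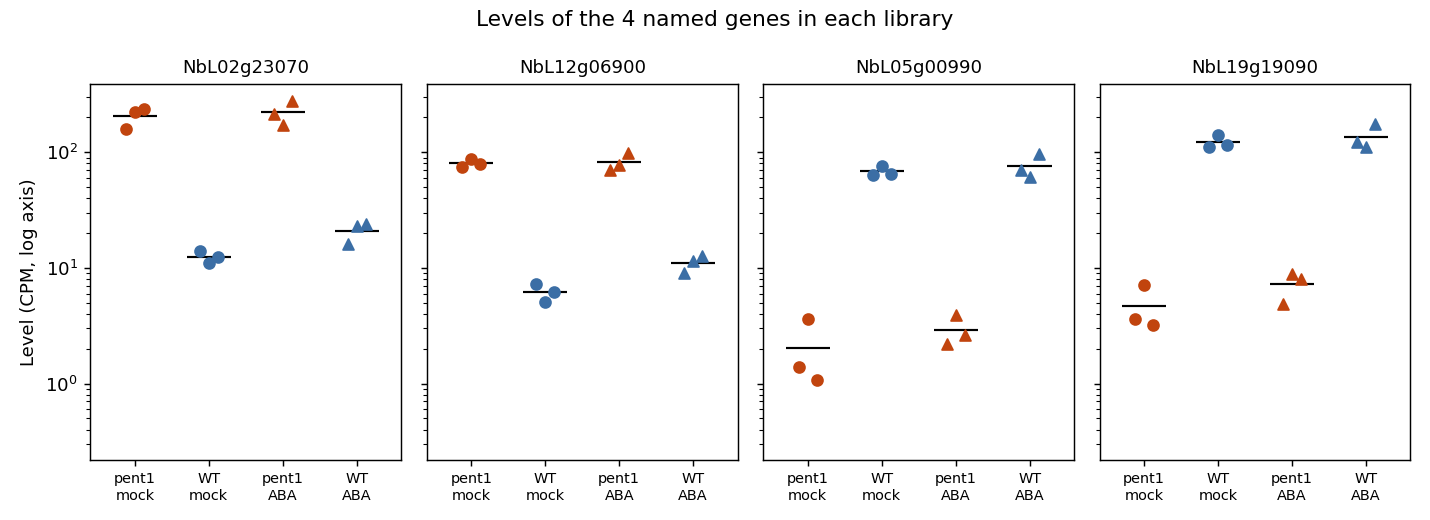
Level in CPM (vertical log axis) of the 4 named genes in each of the 12 libraries, with circles for mock, triangles for ABA and lines for group means of 3 libraries. NbL02g23070 averages 206 CPM in pent1 mock against 12.5 CPM in WT mock and NbL05g00990 averages 2.03 against 68.4 CPM, and both orders recur in the ABA libraries.

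Genes were called more often at higher levels, and the leading direction was not the same at each level. When the genes were split in 10 equal bins by mean level over the 6 mock libraries, 21.9% were called in the lowest bin (up to 1.53 CPM) and 46.9% in the highest (55.3 CPM and above), beside 34.9% overall. The median absolute log2 fold change was 0.459 in the lowest bin and 0.25 in the highest, so more calls did not mean larger differences. In the lowest bin 10.8% were higher and 11.1% lower in pent1. In the second lowest bin 16.1% were higher and 9.34% lower in pent1. In the highest bin 18% were higher and 28.9% lower, and this order held under each scaling tried, from 520 higher and 1109 lower under upper-quartile factors to 713 and 861 with library size alone. Differences of at least 2-fold were most frequent among weakly expressed genes, with 293 higher and 308 lower in the lowest bin, against 88 and 58 in the highest. Of the 134 genes at least 16-fold lower, 86 lay in the lowest bin.

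**Figure D3:**
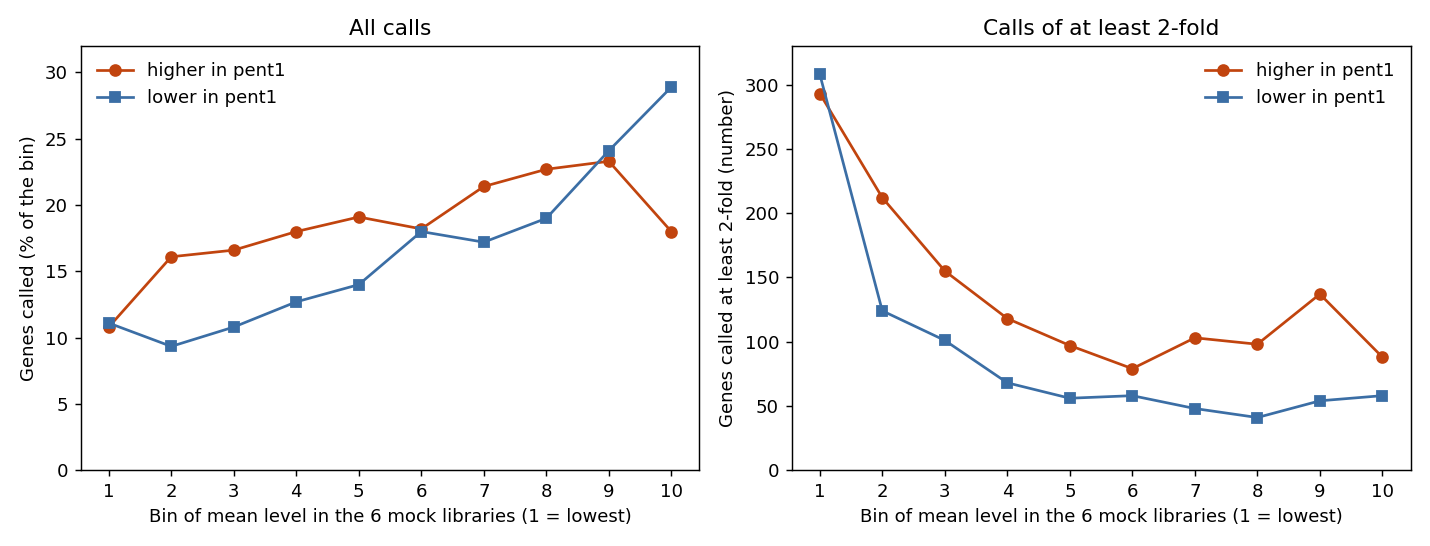
Genes called higher and lower in pent1 mock against WT mock by bin of mean level (horizontal axis, 1 the lowest), as a percent of the bin (left) and as the number called at least 2-fold (right). The share called lower reaches 28.9% in the highest bin, and the number called at least 2-fold is greatest in the lowest bin (293 higher and 308 lower).

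The most abundant transcripts, themselves part of the highest bin, were also called lower more often than higher. Of the 200 genes with the highest mean level, all at 443.1 CPM or above, 24 were higher and 52 lower in pent1 mock, 38% called beside 34.9% of all genes tested, of which 18.4% were higher and 16.5% lower. Of these 200, 6 differed by at least 2-fold upward and 7 downward, beside 4.16% upward and 2.76% downward of all genes tested. Across all genes called, 72 gained at least 100 CPM in pent1 and 105 lost at least 100 CPM.

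Genes tested but not called took 57.7% of counts in pent1 mock and 57.4% in WT mock. The called genes were 34.9% of those tested, and calls were more frequent at higher levels. Those called higher took 21.9% ± 0.281 of counts in pent1 mock and 13.6% ± 0.112 in WT mock (SD, n = 3 each), values given as a description since the same libraries chose the genes. Those called lower took 20.3% ± 0.476 in pent1 mock and 28.8% ± 0.198 in WT mock. In the ABA libraries, which did not choose them, the higher set took 21.7% ± 0.825 of counts in pent1 and 16.4% ± 0.0821 in WT, and the lower set took 20.6% ± 1.05 in pent1 and 25.9% ± 0.135 in WT (SD, n = 3 each). The groups did not overlap in either set (exact two-sided permutation p = 0.1 each, the smallest possible). The pent1 shares thus stood close to their mock values, while the gap to WT was smaller under ABA than under mock. The choice of genes in the mock libraries favours a larger gap under mock, and a change of the gap was not tested.

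Measuring the genotype difference again in the ABA libraries asked which of the mock differences recur in libraries that share none with the choice, although each genotype still has its own table. Of the 6029 higher genes that were also tested under ABA, 5184 had the same sign there (86%) and 2727 were called higher (45.2%), beside 12.7% called higher among all genes tested under ABA. Of the 5408 lower genes, 4622 had the same sign (85.5%) and 2393 were called lower (44.2%), beside 14.4%. Over both directions 27.1% of genes tested under ABA were called. Of all 32610 genes tested in both comparisons, 69.9% had the same sign. Among genes not called under mock this share was 59% for log2 fold changes above 0 and 63.8% for those below 0. Opposite calls were few, with 91 genes higher under mock and lower under ABA, and 16 the other way. Taken from the other side, of the genes called under ABA that were also tested under mock, 65.4% of the 4169 higher and 51.5% of the 4645 lower were called in the same direction under mock, beside 18.4% and 16.5% of all genes tested there.

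The share of mock differences with the same sign under ABA was higher for larger differences in both directions. Among higher genes the share with the same sign was 77.8% for log2 fold changes under 0.5 and 97.5% for those over 2. Among lower genes it was 77% under 0.5 and 99.2% over 2, beside 69.9% of all genes tested in both comparisons. Large decreases came back at nearly full size, with a median of -4.10 under mock and -3.75 under ABA for the 259 genes lower by over 2 on the log2 scale. Large increases came back smaller, with a median of 2.35 under mock and 1.32 under ABA for the 160 genes higher by over 2. By summed counts with the floor of 3, these medians were -3.97 under mock and -3.75 under ABA for the lower genes, and 2.37 under mock and 1.37 under ABA for the higher genes. At 4-fold by summed counts, 83.5% of the 291 lower genes and 19.7% of the 178 higher genes were again at least 4-fold apart under ABA in the same direction. Of these, 208 of the lower but 30 of the higher genes were at least 8-fold apart under mock, so the higher set lay closer to the limit. For log2 fold changes of 1 to 2, the medians under mock and ABA were 1.26 and 0.74 for higher genes. For lower genes they were -1.24 and -1.13. Genes chosen by their size in one set of libraries tend to be smaller in another, and this acts on both directions. The difference between the directions was not tested.

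**Figure D4:**
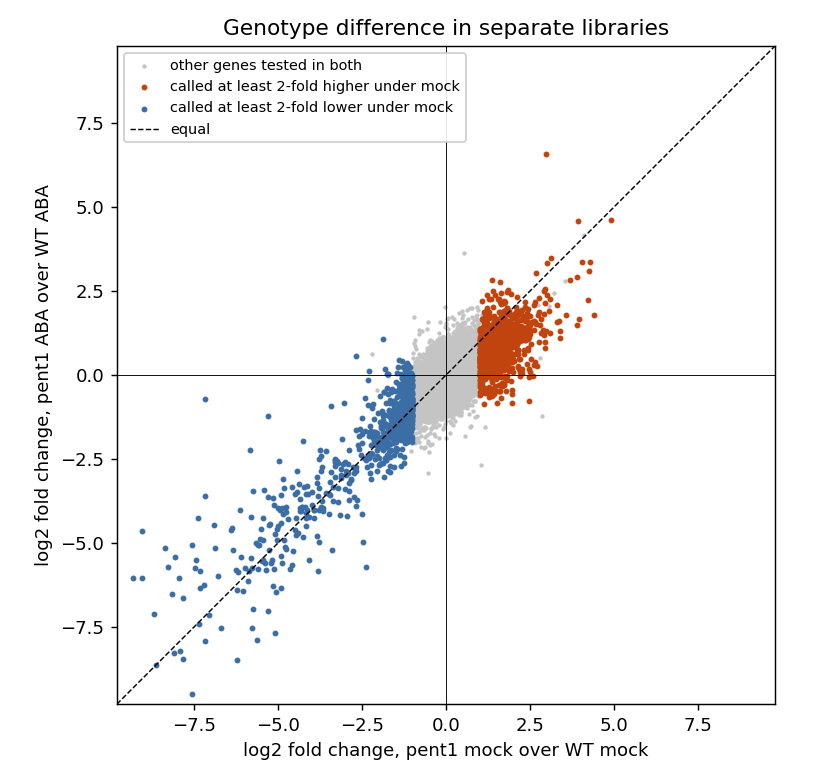
Log2 fold change of pent1 over WT under mock (horizontal axis) and under ABA (vertical axis) for 32610 genes tested in both, each axis from its own 6 libraries. Genes called at least 2-fold under mock are coloured by direction, and 95% of these 2157 genes have the same sign on both axes, with large decreases near the line of equality and increases mostly under it. Over all 32610 genes 69.9% have the same sign.

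Whether the genotype difference itself changed with ABA was tested as an interaction on all 12 libraries. Such a change was called for 545 of the 6110 genes higher under mock (8.92%) and for 297 of the 5482 genes lower under mock (5.42%), beside 3.37% of all genes tested (edgeR, adjusted p under 0.05), where 1.2% were positive and 2.17% negative. Of the 545, 535 changed downward, with a median log2 fold change of 0.03 under ABA and 1.01 under mock. Of the 297, 277 changed upward, with medians of 0.08 under ABA and -0.56 under mock. The mock libraries enter both the choice and the interaction, which favours a smaller difference under ABA. These counts rest on scaling and on single libraries. With library size alone, 804 of the higher and 172 of the lower genes had a called change. Without 1 library the higher genes with a called change numbered 212 to 563 and the lower ones 50 to 476, except without pent1 ABA replicate 3, where 1390 and 1552 were called and the order turned. Each of the 12 libraries moved the number of lower genes by over 1.5 times. The 842 genes of both directions became 453 without pent1 mock replicate 3, 412, 284 and 373 without WT mock replicates 1, 2 and 3, 397 and 2942 without pent1 ABA replicates 2 and 3, and 326, 345 and 411 without WT ABA replicates 1, 2 and 3. Of the 134 genes at least 16-fold lower, 2 had a called change.

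The IDs run in order within prefixes, and the sources used here do not say what a prefix stands for. The share of tested genes called higher was 16.9% to 20.7% over the prefixes NbL01 to NbL19, and the share called lower was 14.8% to 19.2%. The small prefix NbL00, with 108 tested genes, had 25.9% higher and 15.7% lower. Among genes called at least 2-fold higher, 7.9% were followed by a tested ID also called at least 2-fold higher, beside 4.16% of all genes. For genes at least 2-fold lower the same share was 3.82%, beside 2.76%. Runs of 3 or more neighbouring tested IDs changed at least 2-fold numbered 14 for higher genes and 5 for lower genes, and the longest held 4. Of the 56 run members also tested under ABA, 52 had the same sign there (92.9%), a share near the 95% of all 2157 genes called at least 2-fold under mock. No long block of neighbouring IDs was lost together in pent1.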

How the data were processed

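The authors deposited whole-number read counts per gene, without normalization, in 1 table per genotype with the same 45796 IDs. The kit marked the strand of mRNA, per the labels' protocols. The submitters' processing notes name DESeq2, STAR, cutadapt and FastQC. Counter, genome build, annotation and use of strand: not given in the sources used here. Columns were matched to samples by the labels' descriptions.

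Counts were analysed with edgeR 4.0.16 in R 4.3.3: filterByExpr (minimum count 10), TMM factors, robust quasi-likelihood F-tests, and Benjamini-Hochberg adjustment over all genes tested at 0.05. The mock and ABA comparisons of genotype were each fitted on their own 6 libraries, and the interaction on all 12. SEs are those implied by the F statistic. CPM are scaled by TMM factors of all 12 libraries, with these exceptions. The limit of 1 CPM on genes without counts and the shares of counts use total counts. The level bins and the limit on average log2 CPM for named genes use edgeR's average log2 CPM from the fit of the 6 mock libraries. Replicates differed by more than sampling noise (chi-square per degree of freedom 2.63 to 10.3). Intervals and floors cover counting error only. P-values measure the spread between these libraries. The tests were checked on simulated counts, where false calls were more frequent than the nominal rate and small interaction changes were mostly missed.

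By rule, the text names 2 genes at either end of the log2 fold changes, among those called with groups that do not overlap and an average log2 CPM of 5 or more. Members and rules were chosen with earlier results of these data known. Alternatives were RLE, upper-quartile and library-size scaling, DESeq2 1.42.0, limma-voom 3.58.1, other filters, a replicate block, 1 fit of all 12 libraries, a 2-fold minimum, and each library left out.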

Additional observations from a re-analysis of the deposited data

Results flagged for a closer look

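The genotype difference differed between ABA and mock, by the interaction test of edgeR, for 842 of the 11592 genes called under mock. These were 8.92% of the higher and 5.42% of the lower genes, beside 3.37% of all genes tested. The number ran from 284 to 2942 when 1 library was left out, and choosing genes in the mock libraries favours calls of a change. NbL12g06900 was among the genes with such a change, with a log2 difference of -0.81 between its ABA and mock fold changes (SE 0.208, Benjamini-Hochberg adjusted p = 0.0415). Its pent1 mean was 82 CPM under ABA and 80 CPM under mock, whereas its WT mean was 11.1 CPM under ABA and 6.17 CPM under mock. The call held in 3 of 12 fits that each left out 1 library, with adjusted p-values of 0.00222 to 0.127. NbL12g06900 was named for its high mock fold change, and the mock libraries also enter the interaction, which favours a negative value. The other named genes had no called change, with adjusted p-values of 0.22 for NbL02g23070, 0.717 for NbL05g00990 and 0.559 for NbL19g19090.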

How the results depend on the processing

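The number of genes called under mock stayed within 1.5 times of 11592 in each scaling, tool and filter tried, and DESeq2 gave the fewest of these, 9540, keeping 80.8% of the calls. Leaving out 1 library gave 8715 to 11218 calls, with 4357 to 5940 higher and 4358 to 5497 lower, so the excess of higher genes was not kept in each. A 2-fold minimum left 2296 genes, 1380 higher and 916 lower, and 1828 under ABA. Under ABA, 8989 genes were called, and 5113 to 12267 without 1 library, the fewest without WT ABA replicate 1 and, at 5591 and 5929, without WT ABA replicates 2 and 3. Mock calls repeated under ABA were 5120, 3466 to 5505 without 1 library and 1556 at 2-fold. The interaction gave 842 genes, and 284 to 2942 without 1 library. Genes without counts in pent1 mock were 15, 29 at 0.5 CPM, 5 at 2 CPM and 15 to 32 without 1 library. Genes at least 16-fold apart were 134 lower and 10 higher, and 94 to 145 lower and 4 to 18 higher without 1 library. Runs of 3 or more IDs were 19, and 358 for calls at any fold. Shares of counts under ABA differed by 5.37 and -5.29 percentage points for higher and lower genes, and by 1.73 and -1.51 for those at least 2-fold. The 4 named genes kept their call and direction in each of 64 alternatives. All 64 reuse the mock libraries in which these genes were chosen as extremes, which favours this outcome. Among the alternatives, the 2-fold minimum is a limit set on the main fit and not a refit. By correlation, equal replicate numbers gave no sign that pent1 and WT samples were paired (correlations of -0.0192, 0.0257 and 0.00432). Unequal numbers gave -0.0568 to 0.0525. These values do not show that pairing was absent. Pairing of mock with ABA samples within a genotype was not checked. The replicate block gave 11579 calls under mock, 9938 under ABA and 1200 for the interaction, against 11592, 8989 and 842 without it. Why the ABA and interaction numbers rose was not tested. Alternatives for the interaction, those for genes at least 16-fold apart, and leaving out libraries for genes without counts, were added after the data were seen. Counts near 0 limit folds of weak genes to lower bounds.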
